A study of Mus musculus with 9 samples.

Results

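4 primary tumors are compared here with 3 normal oviducts that carry the same point mutant allele of Dicer1, across all 19435 genes of the deposited table. The tumors are Dicer1ko/D1693N and the oviducts Dicer1+/D1693N, so D1693N is present in both groups and the difference in genotype is the knockout allele in place of the wild-type one. These are 7 of the 9 libraries of the series, chosen by genotype and tissue label. The other 2, from Dicer1+/+ oviducts, were left out of the model. All libraries are poly-A RNA from untreated mouse tissue labelled oviduct. Strain, age and the Cre driver or other origin of the knockout allele are not given in the sources used here, nor is it said whether the libraries came from separate animals, so p-values measure the spread between these samples. Tumor and normal tissue differ in genotype and in tissue state at once, and the contributions of the second Dicer1 allele and of the tumor state cannot be told apart. Read totals per library were 8504993 to 12526078 for the oviducts and 8732190 to 11267144 for the tumors.

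DICER1 is the ribonuclease that cuts miRNA hairpins into mature strands. It has a pair of catalytic domains: RNase IIIb, which holds residue D1693, makes the cut that frees the strand from the 5p side of the hairpin, and RNase IIIa makes the cut on the 3p side. A mature miRNA pairs through its seed, bases 2 to 8, with sites in the 3′ UTR of mRNAs and lowers their level. The normal oviduct is lined by multiciliated and secretory epithelial cells, wrapped in smooth muscle and covered by mesothelium. The 5 miRNAs below are shown with the seed in capitals, because the genes with a site for them give the ends of the range of the seed site results, or, for let-7, because its known targets form a list below. The sequences are those of RefSeq (GRCm38).
let-7a-5p: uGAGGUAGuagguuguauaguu
miR-21a-5p: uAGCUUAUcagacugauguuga
miR-29a-3p: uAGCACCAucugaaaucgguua
miR-200b-3p: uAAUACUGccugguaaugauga
miR-199a-3p: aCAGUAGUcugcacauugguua
let-7a and miR-21a are 5p strands and the other 3 are 3p strands. No 2 of the 5 share a seed.

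Dicer1 (ENSMUSG00000041415.10, chromosome 12, 104687742 to 104751952, minus strand) was measured first, because it is the gene the genotypes differ in. It stood at 1237, 1005 and 1145 normalized counts in oviducts 1 to 3 and 1283, 742, 1379 and 576 in tumors 1 to 4. The groups overlapped, and the change was -0.26 ± 0.31, adjusted p = 0.598. Counts per gene do not separate the knockout from the D1693N transcript, so this is no check of the alleles. Drosha, which makes the cut before DICER1 in the nucleus, stood at 1001, 989 and 976 in the oviducts and 943, 880.1, 779 and 732 in the tumors (-0.25 ± 0.15, adjusted p = 0.273). Of the 20 genes of the miRNA biogenesis and silencing list, 0 were called in either direction, with a median log2 change of -0.02 beside -0.05 over all genes tested. Throughout, a change is the tumor mean minus the oviduct mean on the deposited log2 scale, with its standard error. A normalized count is a read count divided by the size factor of its library. A gene was called, and is said to have risen or fallen, when limma's Benjamini-Hochberg adjusted p was under 0.05 and the change was 1 or more in size. In each called gene whose values are given here, the 4 tumors and the 3 oviducts did not overlap.

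More genes fell than rose. In the tumors 861 genes were called higher (4.43% of those tested) and 2066 lower (10.6%). The falls were also larger: 424 genes fell by at least 3 on the log2 scale and 77 rose by as much. For 154 of the genes called lower no tumor held a read, and for 19 of those called higher no oviduct did. Of the 2927 called genes, 2914 had groups that did not overlap. Over the whole table the tumors were all above the oviducts for 14.4% of genes and all below for 20.9%. The tumors varied more among themselves than the oviducts, with a median SD per gene of 0.470 on the log2 scale against 0.160. Higher genes made up 29.4% of the calls. The median over all genes was -0.054, and after quantile normalization it was 0.083. That normalization gave 40.9%, with 1205 genes higher and 1744 lower. With 1 oviduct left out, so that 2 controls remained, 412 to 466 genes were called higher and 1299 to 1395 lower, and without tumor 4 1311 were called higher and 2327 lower.

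**Figure D1:**
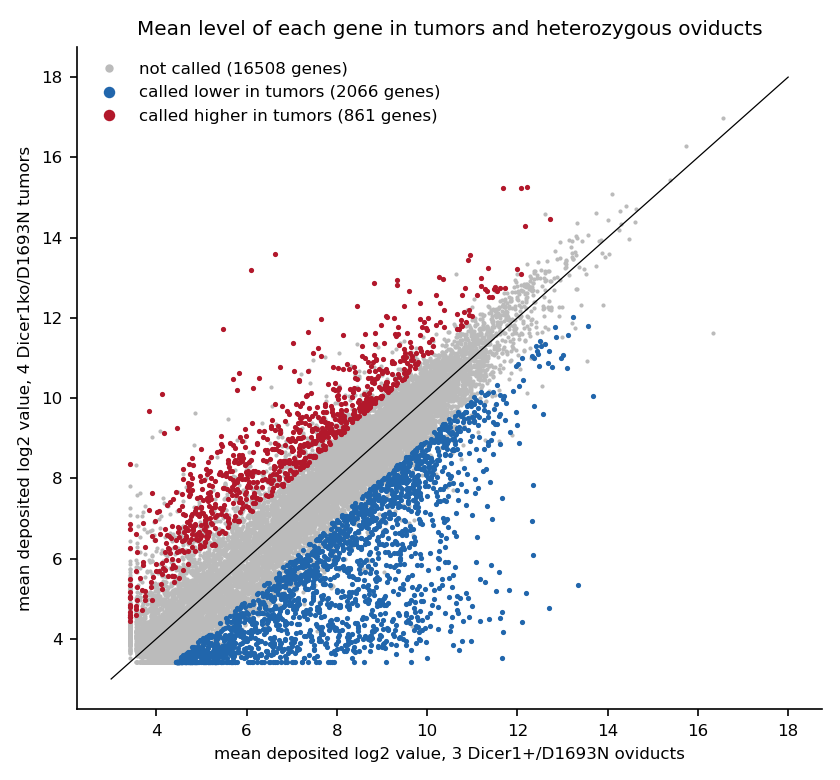
Mean deposited log2 value of each of 19435 genes in the 3 Dicer1+/D1693N oviducts (horizontal) and in the 4 Dicer1ko/D1693N tumors (vertical), with the 861 genes called higher in red, the 2066 called lower in blue and a line of equal level. The blue points reach down to the floor of the scale for genes that are high in the oviducts, while most red points lie nearer to the line.

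Called genes differed in kind. Among genes with a mean deposited value of at least 11, the most abundant class of 682 genes, 7.63% were higher and 3.81% lower, whereas in the class from 3 to 5 on that scale 0.965% were higher and 11.6% lower. Of the 100 genes with the highest mean, 7 rose and 0 fell: Col1a1, Col1a2, Col3a1, Sparc, Ctsd, Itgb1 and Pabpc1. The call of Pabpc1 was lost in 10 of its 15 alternatives, among them quantile normalization, and those of Ctsd and Itgb1 in 3 each, also with quantile normalization. By annotation, 818 of 16606 protein-coding genes rose and 1725 fell, and of 583 lincRNA genes 8 rose and 89 fell. Antisense genes (1300 measured, 18 higher and 140 lower) may share reads with the gene on the other strand, since the strandedness of the counting is not stated. Some gene families stood out by their symbols. Of 136 genes named Ccdc, for a coiled coil domain, 52 fell and 1 rose. Of 44 named Col, for collagen, 18 rose and 1 fell, and of 36 kinesins named Kif 11 rose and 8 fell.

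Marker lists of other cell types showed that single libraries stood apart. Tumor 4 held the most fat cell RNA: Adipoq, the adipocyte hormone, stood at 224, 897 and 629 in the oviducts and 0, 0, 0 and 5428 in the tumors, and the mean deposited value of the 10 fat cell genes was 12.1 in tumor 4, 4.39 to 4.98 in the other tumors and 7.83 to 9.25 in the oviducts. None of the 10 was called, but 9 of them fell in the fit without tumor 4. Tumor 1 held the most red cell RNA, with Hbb-bs, a beta globin, at 731, 612 and 1255 in the oviducts and 32048, 1104, 524 and 1021 in the tumors. The ovarian steroid and germ cell list has 14 genes, of which 1 fell, Hsd3b1, a steroid-making enzyme of the ovary, at 8036, 1436 and 72.6 in the oviducts and 1.0, 0, 0 and 0 in the tumors (5 genes of the list fell without oviduct 3 and 0 without oviduct 2). The 3 oviducts differed widely in it, and only tumor 1 held a read. The list's mean was 6.90, 6.88 and 4.69 in oviducts 1 to 3 and 4.2 to 4.40 in the tumors. Oviduct 3 was the highest of the 3 in B and plasma cell genes (9.59 beside 7.51 and 8.68) and in Fos. Tumor 3 was the lowest tumor in macrophage, neutrophil, T cell and B cell genes and had 3053 genes without a read, beside 1369 to 1945 in the other tumors. In bulk tissue, fewer cells of a type and less RNA per cell cannot be told apart. The part of these differences in the results below was not tested.

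**Figure D2:**
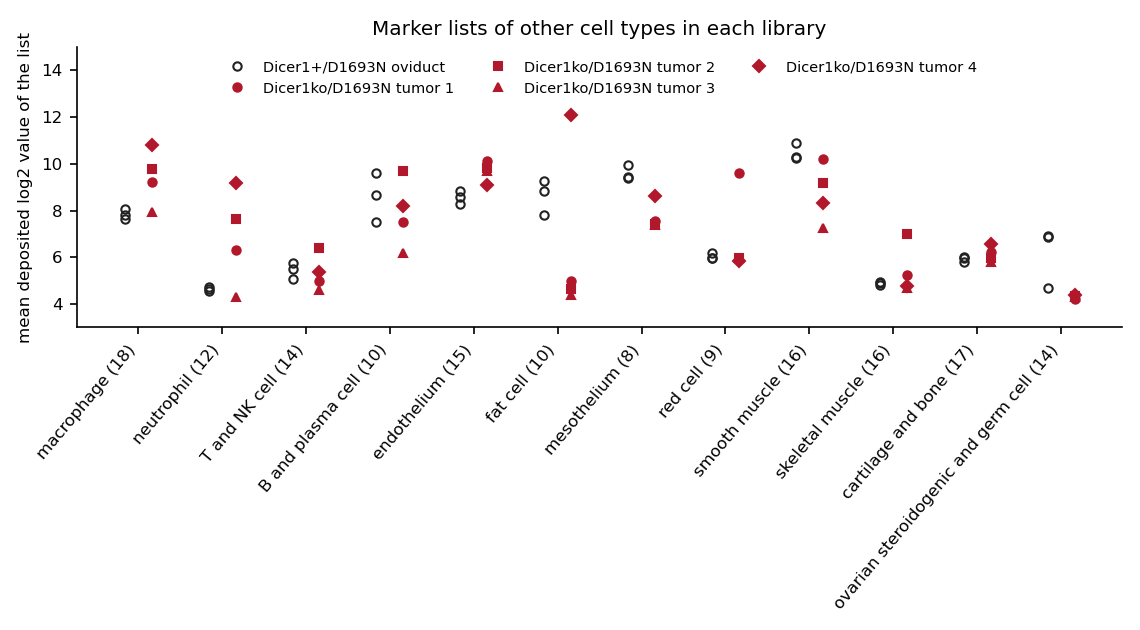
Mean deposited log2 value of 12 marker lists (number of measured genes in brackets) in each of the 3 Dicer1+/D1693N oviducts (open circles) and the 4 Dicer1ko/D1693N tumors (filled symbols, 1 shape per tumor). Tumor 4 stands at 12.1 for fat cell genes and tumor 1 at 9.60 for red cell genes, apart from the other tumors, and all 4 tumors lie below the oviducts for mesothelium.

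Over the 67 gene lists, 10 had 0 called genes, among them the 58 cytosolic ribosomal proteins, the 70 subunits of the respiratory chain and ATP synthase and the 35 genes of the proteasome. The lists with the largest shares of genes called lower belonged to the motile cilium, and those with the largest shares called higher to mitosis, endothelium, collagen modification and DNA replication. The ribosomal and proteasome lists had median log2 changes of 0.61 and 0.53 with 0 genes called. In 31 of 58 and 29 of 35 genes all tumors lay above all oviducts, beside 14.4% of all genes. Rplp0, a stalk protein of the ribosome, stood at 9734, 10579.9 and 9669 in the oviducts and 18593, 21014, 13196 and 15405 in the tumors (0.75 ± 0.25, adjusted p = 0.0737), so the groups were apart but the gene was not called.

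**Figure D3:**
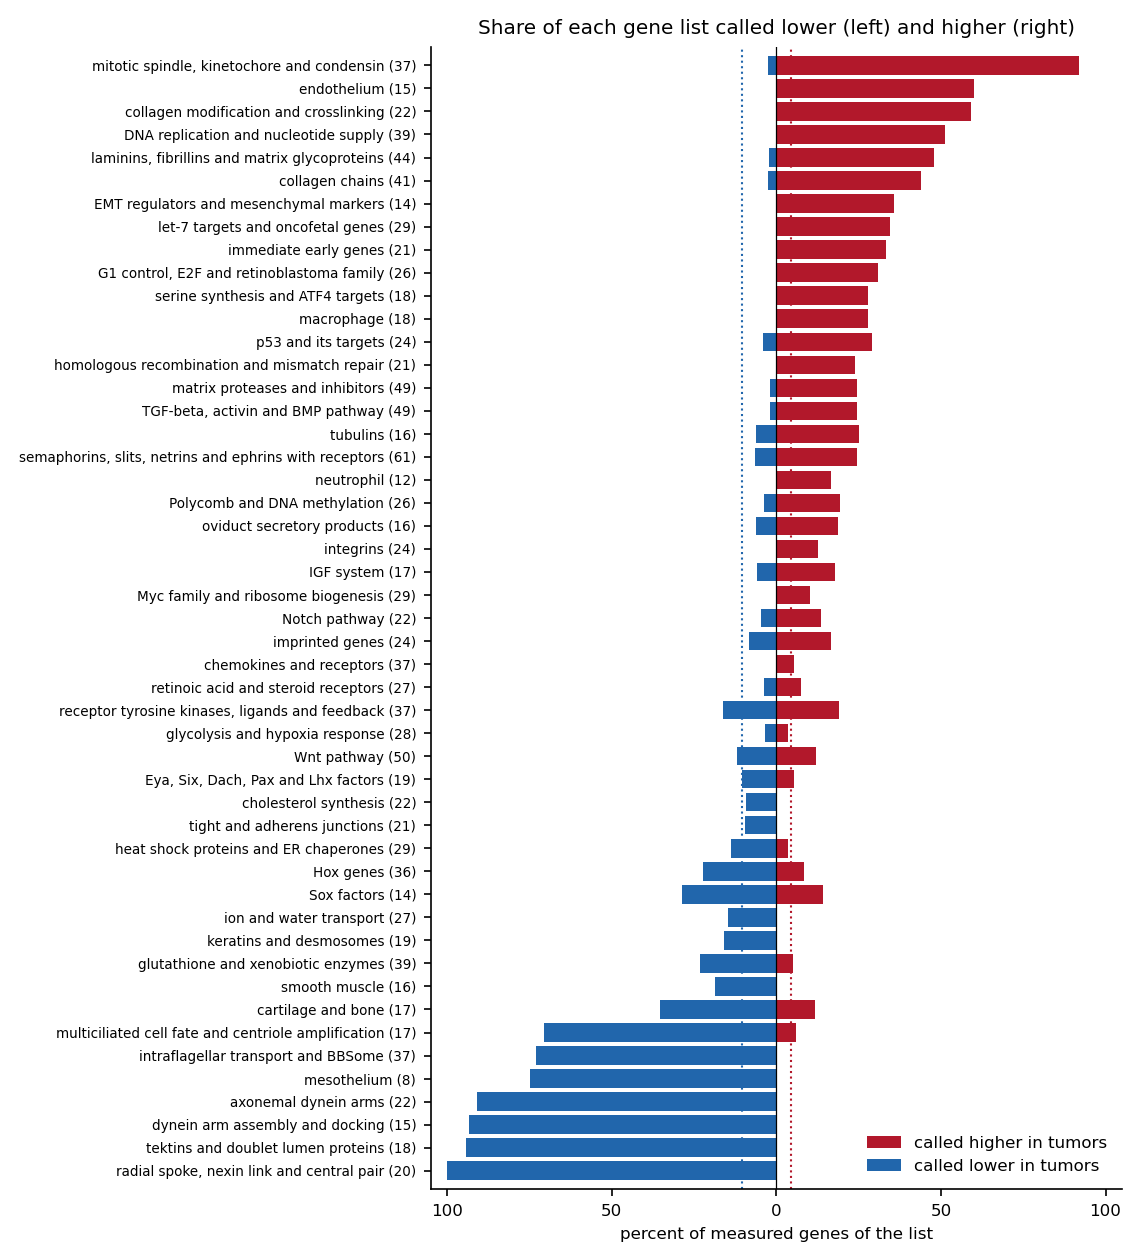
Percent of the measured genes of each list (number in brackets) that were called lower in the tumors (blue, to the left) and higher (red, to the right), for the lists with at least 2 called genes, with dotted lines at the shares over all genes, 4.43% higher and 10.6% lower. The 4 lists of motile cilium parts reach 90.9% to 100% on the left, and mitosis reaches 91.9% on the right.

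The motile cilium genes fell together. Motile cilia beat because dynein arms on their microtubule doublets slide neighbouring doublets, guided by radial spokes and a central pair. Of 75 measured genes of these parts 71 fell and 0 rose, with a median log2 change of -4.05. By part, 20 of 22 dynein arm genes, 14 of 15 genes of dynein arm assembly and docking, 20 of 20 genes of the radial spokes, nexin links and central pair, and 17 of 18 tektins and doublet lumen proteins fell. Without any 1 library these counts stayed at 18 or more, 13 or more, 17 or more and 15 or more.

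Dnah5 (ENSMUSG00000022262.8, chromosome 15, 28203752 to 28472052, plus strand), a heavy chain of the outer dynein arm, held 6225, 5591 and 8342 in the oviducts and 112, 6.8, 0 and 2.1 in the tumors. All 4 tumors were far below the oviducts, with tumor 1 the highest of them, and the change was -7.93 ± 0.77, adjusted p = 0.000436. Dnah9, another outer arm heavy chain, held 2900.0, 2914 and 3929 in the oviducts and 44.7, 1.1, 12.4 and 1.1 in the tumors (-6.99 ± 0.52, adjusted p = 0.000188). Hydin, a central pair protein, was at 2817, 2764 and 3676 in the oviducts and 57.3, 26.1, 29.3 and 20 in the tumors (-5.93 ± 0.27, adjusted p = 7.4e-05), with reads in all 4 tumors. Rsph4a, a radial spoke head protein, had 1549, 1557 and 2128 in the oviducts and 26.2, 0, 0 and 0 in the tumors, so that a single tumor held reads. Armc4, which docks the outer arms, showed the same distribution with 560.4, 532 and 781 in the oviducts and 16.5, 0, 0 and 0 in the tumors. Tekt1, a tektin of the doublet wall, held 648, 739 and 939 in the oviducts and 63.1, 4.5, 0 and 0 in the tumors (-5.23 ± 0.70, adjusted p = 0.00179). Tumor 1 was the highest tumor for 51 of the 75 genes; its median over them was 37.9 normalized counts, beside 10.2, 12.4 and 8.4 in tumors 2 to 4 and 573.7 to 792.1 in the oviducts.

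Most regulators of ciliated cells and most genes of intraflagellar transport fell as well. Of 17 genes of multiciliated cell fate and centriole amplification, 12 fell and 1 rose (8 to 11 fell without any 1 library). Foxj1 (ENSMUSG00000034227.7, chromosome 11, 116330704 to 116335399, minus strand), the transcription factor that switches on motile cilium genes, held 4184, 4901 and 6649.9 in the oviducts and 244, 15.9, 59.7 and 12.6 in the tumors (-6.24 ± 0.70, adjusted p = 0.000809). Trp73, a p53 relative needed for multiciliated cells, held 459, 508 and 560.2 in the oviducts and 8.7, 0, 0 and 2.1 in the tumors (-5.14 ± 0.37, adjusted p = 0.000184). Rfx2, which binds X-box sequences of cilium genes, held 573, 728 and 824 in the oviducts and 98.1, 54.5, 34.9 and 46.3 in the tumors (-3.27 ± 0.31, adjusted p = 0.000397). The gene that rose was Plk4, the kinase that starts centriole duplication in dividing cells too, at 79.3, 70.4 and 59.7 in the oviducts and 271, 217, 284 and 147 in the tumors (1.45 ± 0.28, adjusted p = 0.00914, adjusted p = 0.0531 without oviduct 3). Intraflagellar transport carries cargo in motile and in primary cilia. Of its 37 genes, BBSome included, 27 fell and 0 rose (20 to 29 without any 1 library), with a median of -1.56 beside -4.05 for the motile cilium parts. Ift88, a core transport subunit, held 1068, 1050.4 and 1374 in the oviducts and 230.2, 119, 259 and 149 in the tumors (-2.54 ± 0.27, adjusted p = 0.000652). Bbs1, a BBSome subunit, held 456, 582 and 646 in the oviducts and 83.5, 40.9, 27 and 52.6 in the tumors (-3.09 ± 0.32, adjusted p = 0.000518). All 37 genes had reads in every tumor, whereas 13 to 20 of the 75 motile cilium genes had none in tumors 2, 3 and 4.

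The promoters of the motile cilium genes held an X-box half-site, GTTGCCA on either strand, more often than those of all genes. In windows from 250 bases before to 50 after the transcription start (RefSeq, GRCm38.p6), it was present for 12 of 60 motile cilium genes with a promoter (20%), beside 699 of 14076 genes of the table (4.97%). Over all genes, it was present for 10.4% of those called lower, 2.79% of those called higher and 4.39% of those not called. Dnah5, Dnah9 and another promoter of Tekt1 had no match. The windows of the 3 named motile cilium genes with a match are shown with the match in capitals.
Hydin, chr8:110266937-110266996, plus strand: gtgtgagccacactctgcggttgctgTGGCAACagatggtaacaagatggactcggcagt
Tekt1, chr11:72361864-72361923, minus strand: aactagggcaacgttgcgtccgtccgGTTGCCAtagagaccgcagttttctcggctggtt
Zmynd10, chr9:107547294-107547353, plus strand: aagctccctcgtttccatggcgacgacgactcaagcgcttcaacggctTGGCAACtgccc
Zmynd10, which assembles dynein arms in the cytoplasm, held 621, 706 and 857 in the oviducts and 22.3, 4.5, 9.0 and 3.2 in the tumors (-4.88 ± 0.34, adjusted p = 0.000165). A match of 7 letters is a description of the window and not a measured binding site.

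**Figure D4:**
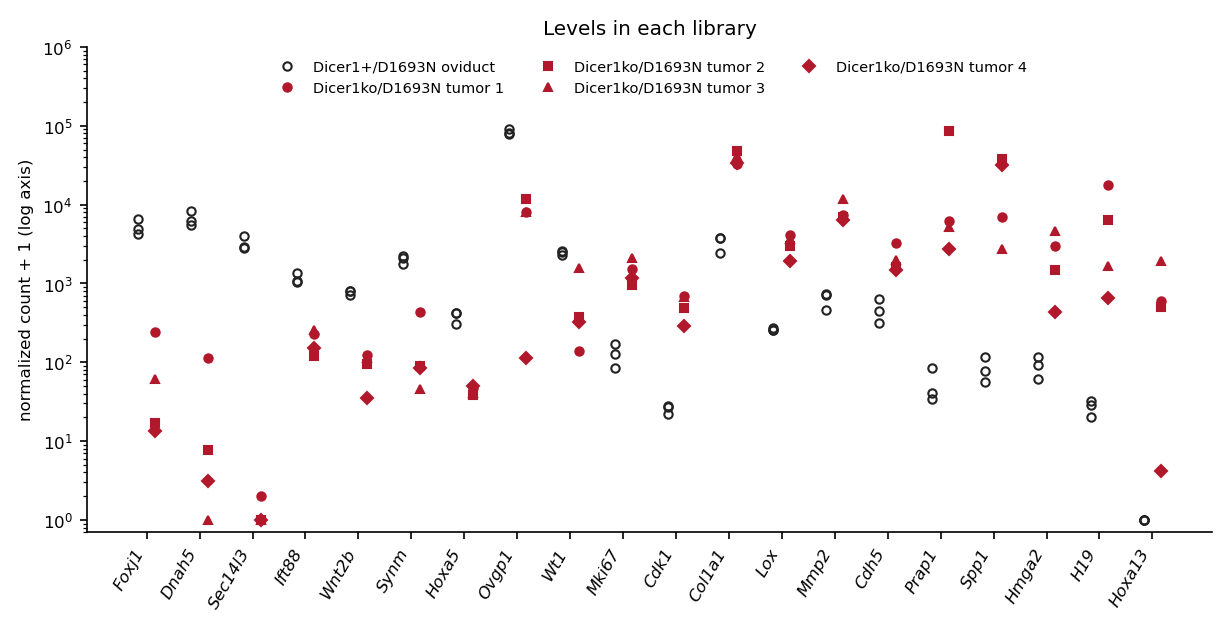
Normalized counts plus 1, on a log axis, of 20 genes in each of the 3 Dicer1+/D1693N oviducts (open circles) and the 4 Dicer1ko/D1693N tumors (filled symbols, 1 shape per tumor). From Foxj1 to Wt1 the tumors lie below the oviducts and from Mki67 to Hoxa13 above; Ovgp1 is the only gene of the 20 that was not called.

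Other epithelial genes changed in part. Of 19 keratin and desmosome genes 3 fell, of 21 tight and adherens junction genes 2 fell, of 14 epithelial transcription and splicing factors 1 fell and of 27 ion and water transport genes 4 fell, with 0 risen in each. Beside 10.6% of all genes these shares, 7.14% to 15.8%, were near the background. Without any 1 library the counts ran from 1 to 4, 0 to 4, 1 to 4 and 2 to 5. Dsp, which anchors keratins at desmosomes, held 4006, 3897 and 4651 in the oviducts and 1011, 840.3, 1065 and 2519.8 in the tumors (-1.74 ± 0.35, adjusted p = 0.0119). Ehf, the transcription factor called lower, held 4312, 4572 and 4425 in the oviducts and 1302, 1570.5, 1280.1 and 1339 in the tumors (-1.68 ± 0.14, adjusted p = 0.000286) and varied little among the tumors. Cftr, the chloride channel of epithelia, held 1284, 1244 and 1454 in the oviducts and 99.1, 159, 322 and 328 in the tumors (-2.58 ± 0.38, adjusted p = 0.00289). Epcam, a general epithelial surface protein, held 2190.1, 2493 and 2699.6 in the oviducts and 1274, 2597, 1028 and 4357 in the tumors, with overlapping groups (-0.32 ± 0.47, adjusted p = 0.678). Cdh1, the epithelial cadherin, was at 4390.2, 4379 and 4736 in the oviducts and 1769, 2521, 1476 and 4114 in the tumors (-0.97 ± 0.33, adjusted p = 0.0767); all tumors were below all oviducts, and it was called without tumor 4 (adjusted p = 0.00703).

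Secretory genes went in both directions. Ovgp1, the glycoprotein that oviduct secretory cells release, held 78144, 89873 and 80638 in the oviducts and 8071, 11678, 8061 and 112 in the tumors. All tumors were below all oviducts, tumor 4 was far below the other tumors, and the gene was not called (-4.71 ± 1.45, adjusted p = 0.0556, and 0.000875 without tumor 4). Of 16 genes of oviduct secretory products 3 rose and 1 fell (1 to 6 rose without any 1 library, the fewest without oviduct 1 or 2 and the most without tumor 3). Spp1, osteopontin, held 54.7, 114 and 77.6 in the oviducts and 6872, 37610.2, 2736 and 31947 in the tumors (6.95 ± 0.87, adjusted p = 0.00133). Wfdc2, a secreted protease inhibitor, held 893, 988 and 1237 in the oviducts and 2283, 4319.7, 2062 and 2547 in the tumors (1.36 ± 0.27, adjusted p = 0.0106), and Wfdc18, a relative, fell (122, 209.6 and 188 in the oviducts and 9.7, 22.7, 4.5 and 9.5 in the tumors, -2.77 ± 0.34, adjusted p = 0.00123). Pax8, the lineage factor of Müllerian secretory epithelium, held 1559, 1515 and 1587 in the oviducts and 924, 1231, 413 and 886 in the tumors (-0.93 ± 0.33, adjusted p = 0.0855).

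Genes of cell division rose. Of 37 genes of the mitotic spindle, kinetochores and condensin 34 rose and 1 fell (34 or 35 rose without any 1 library), with a median log2 change of 2.34. Cdk1 (ENSMUSG00000019942.13, chromosome 10, 69335146 to 69352938, minus strand), the kinase that drives entry into mitosis, held 25.7, 27 and 20.9 in the oviducts and 688, 485, 671 and 291 in the tumors (3.61 ± 0.32, adjusted p = 0.00034). Ccnb1, its cyclin, held 4.5, 12.7 and 15.9 in the oviducts and 512, 271, 469.5 and 214 in the tumors (3.73 ± 0.38, adjusted p = 0.000499). Kif23, a kinesin of the midbody, held 25.7, 15 and 38.8 in the oviducts and 552, 272, 564 and 399 in the tumors (3.35 ± 0.33, adjusted p = 0.000484). In each of them every tumor lay far above every oviduct. Mki67, a protein of dividing nuclei, held 82.6, 127 and 170.2 in the oviducts and 1544, 944, 2088 and 1163 in the tumors (3.29 ± 0.32, adjusted p = 0.000428). The gene that fell was Pttg1, securin, which holds back the enzyme that separates sister chromatids, at 435, 451 and 496 in the oviducts and 230.2, 217, 102 and 159.9 in the tumors (-1.33 ± 0.28, adjusted p = 0.0126); the call was lost without any 1 oviduct and in the models with all 9 libraries. Of 39 genes of DNA replication and nucleotide supply 20 rose and 0 fell, 12 to 24 without any 1 library and fewest without 1 of the oviducts. In 34 of the 39 all tumors lay above all oviducts, beside 14.4% of all genes. Mcm5, a subunit of the replicative helicase, held 38, 67.4 and 70.6 in the oviducts and 533, 602, 683 and 430.1 in the tumors (2.90 ± 0.25, adjusted p = 0.000314). Rrm2, which makes deoxynucleotides, held 19, 36.7 and 32.8 in the oviducts and 524, 236, 362 and 264 in the tumors (2.88 ± 0.33, adjusted p = 0.000842).

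Promoters of the cell division genes were searched for a pair of known motifs. The cell cycle homology region, TTTGAA on either strand, was in the window of 23 of 31 mitosis genes with a promoter (74.2%), of 4 of 31 replication genes (12.9%) and of 15.3% of the genes of the table. CCAAT boxes, CCAAT on either strand, were in 74.2%, 64.5% and 41.8%. Over all genes, TTTGAA was present for 22.3% of those called higher, 14.8% of those called lower and 15% of those not called. Ccnb1 and Pttg1 had no TTTGAA match, and Cdk1 had 2, of which the first is shown. The windows of the named mitosis genes with a match are shown with TTTGAA or its reverse complement in capitals.
Cdk1, chr10:69352950-69353009, minus strand: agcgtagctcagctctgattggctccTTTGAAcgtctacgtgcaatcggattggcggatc
Kif23, chr9:61946764-61946823, minus strand: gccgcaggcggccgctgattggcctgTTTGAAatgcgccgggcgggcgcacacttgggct
As for the X-box, a match describes the letters of the window and not binding.

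Regulators of the cell cycle changed less uniformly. Of 26 genes of G1 control and the E2F and retinoblastoma family 8 rose and 0 fell (3 to 12 without any 1 library, fewest without 1 of the oviducts). Ccne1, the G1/S cyclin, held 5.6, 9.7 and 7.0 in the oviducts and 263, 258, 380.5 and 112 in the tumors (3.41 ± 0.40, adjusted p = 0.000928). Cdkn2a, which codes for p16 and p19ARF, held 27.9, 67.4 and 84.6 in the oviducts and 554, 718, 702 and 136 in the tumors (2.63 ± 0.58, adjusted p = 0.0163), with tumor 4 below the other tumors. Of 24 genes of p53 and its targets 7 rose and 1 fell (4 rose without oviduct 3). Trp53 itself held 621, 577 and 467 in the oviducts and 1019, 1229, 1200.2 and 995 in the tumors, above all oviducts in every tumor, and passed the adjusted p but missed the minimum change (0.98 ± 0.17, adjusted p = 0.00532). Pmaip1, a proapoptotic p53 target, held 14.5, 24 and 39.8 in the oviducts and 431, 420.2, 221 and 919 in the tumors (3.41 ± 0.45, adjusted p = 0.00179). Cdkn1a, the kinase inhibitor p21, held 415, 475 and 500.5 in the oviducts and 3144, 1513, 798 and 1263 in the tumors (1.64 ± 0.40, adjusted p = 0.0254). The p53 target that fell was Rrm2b, the replication-independent counterpart of Rrm2, at 580.4, 508 and 555 in the oviducts and 203, 199, 289 and 256 in the tumors (-1.16 ± 0.19, adjusted p = 0.00468). Of 26 Polycomb and DNA methylation genes 5 rose and 1 fell (2 to 6 rose without any 1 library). Ezh2, the H3K27 methyltransferase, held 68.1, 92.1 and 79.6 in the oviducts and 495, 372, 642 and 341 in the tumors (2.24 ± 0.26, adjusted p = 0.000928), and Cbx7, a Polycomb chromobox protein, fell (1108, 979 and 1236 in the oviducts and 617, 279, 149.7 and 259 in the tumors, -1.86 ± 0.40, adjusted p = 0.0145). Of 29 genes of the Myc family and ribosome biogenesis 3 rose and 0 fell, among them Npm1, the nucleolar chaperone, at 3052, 3067 and 2865 in the oviducts and 9236, 6057, 6107 and 5169.9 in the tumors (1.11 ± 0.22, adjusted p = 0.0117).

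Genes of the extracellular matrix rose in all 5 lists examined. Of 180 genes in 5 matrix lists 67 rose and 3 fell. By list, 18 of 41 collagen chains, 13 of 22 genes of collagen modification and crosslinking, 21 of 44 laminins, fibrillins and other glycoproteins, 12 of 49 matrix proteases and inhibitors and 3 of 24 integrins rose. These counts depended on the controls: without oviduct 3, 10 collagen chains and 7 modification genes rose, and without 1 of the oviducts 9 to 12 glycoproteins did. Without tumor 3, 19 protease genes rose, and the integrins ran from 0 to 7 with 1 library left out. Col1a1 (ENSMUSG00000001506.10, chromosome 11, 94936224 to 94953042, plus strand), a chain of the main fibrillar collagen, held 3822, 3819 and 2433 in the oviducts and 32946, 47256, 41698 and 33957 in the tumors (3.54 ± 0.28, adjusted p = 0.000221). Col7a1, the anchoring fibril collagen, held 58, 56.1 and 38.8 in the oviducts and 1471, 1113, 1035 and 1210.5 in the tumors (4.12 ± 0.20, adjusted p = 7.51e-05), with the 4 tumors close to each other. Lox, which crosslinks collagen and elastin, held 258, 257 and 272 in the oviducts and 4073, 3022, 3684 and 1909 in the tumors (3.44 ± 0.26, adjusted p = 0.000193). P4ha3, a prolyl hydroxylase of collagen chains, held 14.5, 12 and 6.0 in the oviducts and 275, 116, 328 and 292 in the tumors (3.21 ± 0.38, adjusted p = 0.00103). Tnc, tenascin C of remodelling matrix, held 179, 190.2 and 83.6 in the oviducts and 4097, 2826, 2546 and 3441 in the tumors (4.29 ± 0.29, adjusted p = 0.000155). Fbn2, a fibrillin of embryonic tissue, held 108, 67.4 and 22.9 in the oviducts and 2307, 1305, 3316 and 408 in the tumors (4.22 ± 0.70, adjusted p = 0.00485). Mmp2, a gelatinase, held 736, 714 and 454 in the oviducts and 7479, 6991, 11708 and 6360.4 in the tumors (3.63 ± 0.27, adjusted p = 0.000188).

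The 3 matrix genes that fell were Col20a1, Efemp1 and Timp4. Timp4, an inhibitor of metalloproteinases, held 1179, 1425 and 1706 in the oviducts and 14.6, 23.8, 5.6 and 123 in the tumors (-4.98 ± 0.59, adjusted p = 0.000985). Efemp1, a fibulin, held 1517, 1386 and 1236 in the oviducts and 274, 336, 282 and 1024 in the tumors (-1.71 ± 0.43, adjusted p = 0.0278), and its call was lost without any 1 oviduct and without tumor 1, 2 or 3. Col20a1 held 126, 142 and 144 in the oviducts and 22.3, 77.2, 66.4 and 20 in the tumors (-1.39 ± 0.40, adjusted p = 0.0461) and was lost in 7 of its 15 alternatives. Of 14 regulators and markers of mesenchymal cells 5 rose and 0 fell (2 to 8 without any 1 library). Snai1, a repressor of epithelial genes, held 52.5, 34.4 and 21.9 in the oviducts and 322, 299, 188 and 127 in the tumors (2.16 ± 0.38, adjusted p = 0.00611). Cdh11, a mesenchymal cadherin, held 538, 610.2 and 445 in the oviducts and 4068, 4628, 8206 and 2008 in the tumors (2.94 ± 0.42, adjusted p = 0.00233). Vim, vimentin, held 4371, 4291 and 3366 in the oviducts and 9539.5, 7380.1, 5799 and 7996 in the tumors and, like Trp53, passed the adjusted p without reaching the minimum change (0.92 ± 0.22, adjusted p = 0.0244).

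Oncofetal genes and known let-7 targets rose in part. Of 29 genes of this list 10 rose and 0 fell (6 to 14 without any 1 library, fewest without oviduct 2 or 3), a share of 34.5%, and the median log2 change was 1.82. Hmga2 (ENSMUSG00000056758.14, chromosome 10, 120361275 to 120476469, minus strand), a chromatin protein of embryonic tissue, held 116, 91.3 and 59.7 in the oviducts and 3004, 1472, 4631 and 435 in the tumors (4.04 ± 0.71, adjusted p = 0.00651). Igf2bp2, an mRNA-binding protein, held 289, 289.7 and 289.6 in the oviducts and 2316, 1426, 3018 and 793 in the tumors (2.45 ± 0.41, adjusted p = 0.00519), with the 3 oviducts nearly equal. Trim71, a repressor of mRNAs in early embryos, held 0, 0 and 0 in the oviducts and 175, 82.9, 136 and 21 in the tumors (3.30 ± 0.53, adjusted p = 0.0043); the tumor mean count was at least 31.0-fold higher, taking 3 counts in an oviduct as the floor. Tumor 1 stood far above the other tumors in 3 members that were not called: Lin28b, which blocks let-7 maturation (0, 0 and 0 in the oviducts and 538, 4.5, 2.3 and 0 in the tumors), Igf2bp3 (35.7, 25.5 and 22.9 in the oviducts and 409.8, 23.8, 24.8 and 26.3 in the tumors) and Igf2bp1 (5.6, 6.0 and 4.0 in the oviducts and 586, 22.7, 51.8 and 23.1 in the tumors), with adjusted p of 0.344, 0.57 and 0.134. Igf2bp1 was above the oviducts in all 4 tumors and was called without tumor 1. Lin28a, a relative of Lin28b that was counted from the list only, was among the 10 genes that rose. Of the 9 risen genes with an annotated 3′ UTR of at least 50 bases, 7 held a let-7 site, CTACCTC, as did 15 of the 19 that were not called. Over all genes the share with a site was 11.3%. Known let-7 targets were put on the list, so a higher share there follows from how it was made. The first site of the UTR is shown for 3 of the risen genes, with the bases that pair with the seed in capitals.
Hmga2 (4 sites): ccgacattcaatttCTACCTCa
Trim71 (4 sites): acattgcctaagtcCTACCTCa
Igf2bp2 (1 site): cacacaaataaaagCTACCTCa
Mest, which rose, has no such site, and Lin28b and Igf2bp1, which were not called, have 4 each.

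Some imprinted and IGF genes differed widely among the tumors. H19, a maternally expressed noncoding RNA, held 19, 27.7 and 30.8 in the oviducts and 17820.3, 6374, 1650.5 and 644 in the tumors (6.24 ± 0.99, adjusted p = 0.00407). Igf2, its paternally expressed neighbour and a fetal growth factor, held 264, 159.5 and 165 in the oviducts and 7487, 4495, 2229 and 218 in the tumors; tumor 4 lay within the oviducts' range and the gene was not called (3.28 ± 1.04, adjusted p = 0.0616, and 0.000723 without tumor 4). Mest held 113, 131 and 89.6 in the oviducts and 7770.0, 4922, 5768 and 204 in the tumors (4.35 ± 1.13, adjusted p = 0.031), again lowest in tumor 4, with a call that was lost in 7 of 15 alternatives. Dlk1, an inhibitor of differentiation, held 17.9, 3.7 and 16.9 in the oviducts and 19984, 1082, 1161 and 1.1 in the tumors (4.76 ± 2.03, adjusted p = 0.14); leaving out tumor 4 gave an adjusted p of 0.0047. Of 24 imprinted genes 4 rose and 2 fell, and 9 rose in the fit without tumor 4. Of 17 genes of the IGF system 3 rose and 1 fell, with 0 risen without any 1 oviduct and 5 without tumor 4. Igf2r, which clears IGF2 from the cell surface and is imprinted itself, held 1423, 1271 and 1224 in the oviducts and 8185, 3327, 7061 and 2431 in the tumors (1.82 ± 0.42, adjusted p = 0.0193).

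Signaling genes changed in both directions. Of 50 Wnt pathway genes 6 rose and 6 fell, shares of 12% each beside 4.43% and 10.6% of all genes, and 15 rose without tumor 4, while 2 or 3 fell without 1 of the oviducts. The named members that rose were a receptor pair and a pair of secreted inhibitors: Ror2 (89.3, 122 and 97.5 in the oviducts and 904, 637, 1062 and 518 in the tumors, 2.65 ± 0.27, adjusted p = 0.000524), Fzd1, Sfrp1 and Sfrp2 (129.5, 198 and 116 in the oviducts and 3883, 797, 2050.2 and 1051 in the tumors, 3.31 ± 0.51, adjusted p = 0.00352). Those that fell were the ligands Wnt2b (709, 803 and 795 in the oviducts and 122, 93.1, 113 and 34.7 in the tumors, -2.92 ± 0.35, adjusted p = 0.00101) and Wnt16, the R-spondin Rspo1, which raises Wnt receptor levels (520.2, 678 and 554 in the oviducts and 62.2, 170.3, 139.6 and 127 in the tumors, -2.11 ± 0.31, adjusted p = 0.00259), and its receptor Lgr6 (379.5, 377 and 292 in the oviducts and 38.8, 77.2, 4.5 and 74.7 in the tumors, -2.68 ± 0.54, adjusted p = 0.012). Of 49 genes of the TGF-beta, activin and BMP pathway 12 rose and 1 fell (6 to 15 rose without any 1 library, fewest without oviduct 2 or 3). The gene that fell was Bmpr1b, a BMP receptor, at 1425, 1321 and 1502 in the oviducts and 194, 238, 224 and 187 in the tumors (-2.63 ± 0.16, adjusted p = 0.000126), with 4 closely spaced tumors. Id3, a direct BMP target, held 407, 451 and 479 in the oviducts and 1723, 2745, 2400.3 and 1306 in the tumors (2.09 ± 0.26, adjusted p = 0.00123). Fstl1, a follistatin-like secreted protein, held 1357, 1295 and 1011 in the oviducts and 10950.5, 6209, 9456 and 7147 in the tumors (2.74 ± 0.24, adjusted p = 0.000309).

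Growth factor ligands and receptors also split. Of 37 genes of receptor tyrosine kinases with their ligands and feedback 7 rose (1 to 9 without any 1 library, fewest without 1 of the oviducts) and 6 fell (3 to 9). Of the EGF family, Hbegf rose (122, 123 and 130.4 in the oviducts and 427, 605, 225 and 604 in the tumors, 1.65 ± 0.34, adjusted p = 0.0125), while Areg (118, 103 and 112 in the oviducts and 1.9, 10.2, 0 and 0 in the tumors, -3.12 ± 0.38, adjusted p = 0.00115) and Tgfa (886, 686 and 837 in the oviducts and 198, 177, 229.7 and 239 in the tumors, -1.83 ± 0.18, adjusted p = 0.000489) fell; all 3 bind the EGF receptor. Of the FGF ligands, Fgf2 rose (343, 296 and 274 in the oviducts and 662, 735, 1882 and 694 in the tumors, 1.5 ± 0.36, adjusted p = 0.0232) and Fgf1 fell (2910.0, 3397 and 3097 in the oviducts and 394, 238, 938 and 419.6 in the tumors, -2.77 ± 0.39, adjusted p = 0.00224). Etv4, a transcription factor induced by FGF signals, held 7.8, 4.5 and 7.0 in the oviducts and 431, 44.3, 90.1 and 132 in the tumors (2.71 ± 0.61, adjusted p = 0.0179). Pdgfrb, the PDGF receptor of pericytes and fibroblasts, held 563, 394 and 325 in the oviducts and 1718, 1081, 1324 and 1299.8 in the tumors (1.63 ± 0.23, adjusted p = 0.0023). In the Notch list 3 of 22 rose and 1 fell: the ligand Dll4 of endothelial tips rose (146, 126 and 126 in the oviducts and 635, 462, 261 and 471 in the tumors, 1.58 ± 0.29, adjusted p = 0.00761) and the ligand Jag1 fell (1632, 1559 and 1760.2 in the oviducts and 581, 836, 724 and 957 in the tumors, -1.09 ± 0.19, adjusted p = 0.00609). Of 14 Hedgehog genes 0 rose and 1 fell, of 27 genes of retinoic acid and steroid receptors 2 rose and 1 fell, and of 16 Hippo genes 1 rose, shares near those over all genes. Esr1, the estrogen receptor, held 4938, 4719.5 and 4122 in the oviducts and 2389, 2925, 4213 and 1878 in the tumors (-0.74 ± 0.27, adjusted p = 0.094). Pgr, the progesterone receptor, held 1106, 923 and 919 in the oviducts and 593, 1027, 1376 and 458 in the tumors (-0.30 ± 0.36, adjusted p = 0.594).

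Some guidance genes and most endothelial genes rose. Semaphorins, slits, netrins and ephrins guide axons and also migrating and vascular cells. Of 61 genes of these ligands and their receptors 15 rose and 4 fell, and the first count ran from 5 without oviduct 2 or 3 to 24 without tumor 4. Unc5b, a netrin receptor, held 70.3, 98.8 and 68.7 in the oviducts and 1269, 486, 1791 and 614 in the tumors (3.24 ± 0.44, adjusted p = 0.0019). Robo1, a slit receptor, held 139.5, 127 and 52.7 in the oviducts and 1394, 545, 1429 and 378 in the tumors (2.78 ± 0.52, adjusted p = 0.00863). The 4 that fell were Plxna4, Plxnb1, Plxnb3 and Sema3e. Plxnb3, a semaphorin receptor, held 278, 322 and 409 in the oviducts and 2.9, 6.8, 0 and 12.6 in the tumors (-4.20 ± 0.40, adjusted p = 0.000407). Of 15 endothelial genes 9 rose and 0 fell, and 2 to 10 rose without any 1 library, fewest without 1 of the oviducts. Cdh5, the cadherin of endothelial junctions, held 626, 451 and 315 in the oviducts and 3250.4, 1594, 1966 and 1492 in the tumors (2.09 ± 0.32, adjusted p = 0.00349). Plvap, a protein of endothelial diaphragms, held 327, 342 and 249.8 in the oviducts and 1694, 1065, 634 and 926 in the tumors (1.68 ± 0.31, adjusted p = 0.0081). Oviduct 3 was the lowest oviduct for both.

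Hox genes, which pattern the body axis, changed in both directions. Of 36 Hox genes 3 rose and 8 fell. Those that rose belong to paralog groups 9, 10 and 13, and those that fell to groups 3 to 7. Hoxa5 held 423, 308 and 416 in the oviducts and 46.6, 37.5, 39.4 and 49.4 in the tumors (-2.67 ± 0.23, adjusted p = 0.000314). Hoxa3 held 231, 223 and 244 in the oviducts and 64.1, 40.9, 21.4 and 55.7 in the tumors (-2.02 ± 0.31, adjusted p = 0.00366). Hoxa10, which patterns the uterus, held 104.9, 122 and 66.7 in the oviducts and 749, 1073, 1223 and 189 in the tumors (2.56 ± 0.59, adjusted p = 0.0193). Hoxa13, a gene of the lower reproductive tract and limb, had 0, 0 and 0 in the oviducts and 595, 506, 1935 and 3.2 in the tumors (4.93 ± 1.38, adjusted p = 0.04); in tumor 4 this was within the floor of 3 counts, and the call was lost without any 1 oviduct and without tumor 1, 2 or 3. Hoxd13 had 0, 0 and 0 in the oviducts and 505, 137, 2883 and 0 in the tumors and was not called (4.39 ± 1.61, adjusted p = 0.0937); leaving out tumor 4 gave an adjusted p of 0.00485. In the fit without tumor 4, 9 Hox genes rose, and without any 1 oviduct 0 rose and 3 fell. In the Sox family 2 of 14 rose and 4 fell. Sox11, a factor of embryonic progenitors, held 3.3, 1.5 and 3.0 in the oviducts and 3004, 945, 3666 and 116 in the tumors (5.98 ± 1.04, adjusted p = 0.00607). Sox9, a factor of cartilage and of duct epithelium, held 838, 722 and 837 in the oviducts and 298, 169, 92.3 and 119 in the tumors (-2.22 ± 0.34, adjusted p = 0.0036). Eya4, a transcriptional cofactor, was 1 of 19 genes of the Eya, Dach, Pax, Lhx and related list to rise (4.5, 8.2 and 9.0 in the oviducts and 275, 137, 749.8 and 21 in the tumors, 3.04 ± 0.88, adjusted p = 0.0445), a call lost without any 1 oviduct and without tumor 1, 2 or 3.

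Smooth muscle and mesothelial genes fell in part. Of 16 smooth muscle genes 3 fell and 0 rose, with a median of -1.53; 8 fell in the fit without tumor 1. Synm, synemin of the muscle filament network, held 2109.7, 1781 and 2202 in the oviducts and 438, 89.7, 45 and 84.1 in the tumors (-3.91 ± 0.59, adjusted p = 0.00321). Kcnmb1, a subunit of a muscle potassium channel, held 770.2, 534 and 595 in the oviducts and 139.8, 92, 13.5 and 62 in the tumors (-2.97 ± 0.52, adjusted p = 0.00614). Of 8 mesothelial genes 6 fell (1 to 6 without any 1 library, fewest without 1 of the oviducts). Upk3b, a uroplakin of mesothelium, held 1135, 1950.2 and 1202 in the oviducts and 337, 149.9, 149.7 and 536 in the tumors (-2.35 ± 0.45, adjusted p = 0.00901). Wt1, a transcription factor of mesothelium and of the Müllerian duct wall, held 2277, 2548 and 2475 in the oviducts and 137, 374, 1555 and 321 in the tumors (-2.52 ± 0.66, adjusted p = 0.0319), with tumor 3 nearest to the oviducts. Of 16 skeletal muscle genes 0 were called; their mean deposited value was 6.99 in tumor 2, 4.69 to 5.23 in the other tumors and 4.80 to 4.94 in the oviducts. In the fit without tumor 4, 2 of them rose, 1 of which was Myog, a myogenic factor, which had 0, 0 and 0 in the oviducts and 2.9, 116, 33.8 and 2.1 in the tumors (1.84 ± 0.70, adjusted p = 0.106); leaving out tumor 4 gave an adjusted p of 0.0474. Acta1, skeletal actin, held 19, 39.7 and 12.9 in the oviducts and 381, 581, 12.4 and 22.1 in the tumors (1.69 ± 1.08, adjusted p = 0.315). Of 17 cartilage and bone genes 2 rose, Spp1 and Matn4, and 6 fell, among them Sox9, given above. The shares were 11.8% higher and 35.3% lower, beside 4.43% and 10.6% of all genes. Without any 1 library, 3 to 6 fell. Matn4, matrilin 4, held 4.5, 12.7 and 6.0 in the oviducts and 479, 388, 486 and 61 in the tumors (3.66 ± 0.65, adjusted p = 0.00663).

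Some myeloid genes rose. Of 18 macrophage genes 5 rose and 0 fell, and 13 rose without tumor 3. Lyz2, the lysozyme of macrophages and neutrophils, held 1581, 1666 and 2577 in the oviducts and 9786, 15628, 3549 and 27866 in the tumors (2.54 ± 0.62, adjusted p = 0.0254). Trem2, a receptor of lipid-handling macrophages, held 56.9, 79.4 and 92.5 in the oviducts and 457, 406, 137 and 1018 in the tumors (2.17 ± 0.56, adjusted p = 0.0305). Without any 1 oviduct, and without tumor 1 or 2, 0 macrophage genes were called. Of 12 neutrophil genes 2 rose (0 to 5 without any 1 library): S100a9, a subunit of calprotectin, held 3.3, 0 and 1.0 in the oviducts and 607, 4316, 25.9 and 3676 in the tumors (5.84 ± 1.46, adjusted p = 0.0268). Csf3r, the G-CSF receptor, held 15.6, 47.2 and 49.8 in the oviducts and 179.7, 1079.9, 99.1 and 562 in the tumors (2.71 ± 0.74, adjusted p = 0.0376). Ptprc, CD45 of all leucocytes, held 298, 538 and 824 in the oviducts and 312, 1150.3, 239.8 and 1178 in the tumors, with overlapping groups (0.15 ± 0.62, adjusted p = 0.894). Of 14 T and NK cell genes, 14 of MHC class I presentation and 21 of complement 0 were called, and of 22 interferon-stimulated genes 1 fell, Cmpk2. The complement list depended on single tumors: its mean deposited value was 11.4 in tumor 4 and 7.91 in tumor 3, and 4 of its genes fell and 1 rose without tumor 4, while 4 rose without tumor 3. With all 5 oviducts as controls 5 complement genes rose. Without tumor 3, 1 MHC class I gene rose. Of 37 chemokines and receptors 2 rose, Cxcl12 and Cxcl17 (54.7, 65.1 and 47.8 in the oviducts and 307, 813, 219.5 and 673 in the tumors, 2.62 ± 0.44, adjusted p = 0.00546), and 11 rose without tumor 3. The share in the main fit, 5.41%, was near the 4.43% of all genes. Of 21 immediate early genes 7 rose (2 without oviduct 2 and 11 without tumor 3). Fos held 185, 179 and 1032 in the oviducts and 5149, 13273, 3712 and 2415 in the tumors (3.83 ± 0.73, adjusted p = 0.00889). Immediate early genes respond quickly to many stimuli, and oviduct 3 stood above the other oviducts in Fos, Egr1 and Junb.

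Metabolic and stress genes changed in few members. Of 39 genes of glutathione and xenobiotic enzymes 9 fell and 2 rose (5 to 10 fell without any 1 library). The shares were 23.1% lower and 5.13% higher, beside 10.6% and 4.43% of all genes. Gstm1, a glutathione transferase, held 9023, 9035 and 8208 in the oviducts and 1880.1, 1902, 2181.9 and 1060.1 in the tumors (-2.35 ± 0.26, adjusted p = 0.000683). Cyp2s1, a cytochrome P450 of epithelia, held 1344, 1400.0 and 1355 in the oviducts and 284, 86.3, 118 and 36.8 in the tumors (-3.46 ± 0.49, adjusted p = 0.00245). One of the 2 risen genes was Hmox1, heme oxygenase, at 128, 127 and 112 in the oviducts and 3076, 915, 460.5 and 2484 in the tumors (3.26 ± 0.60, adjusted p = 0.00804). Of 29 heat shock proteins and chaperones 4 fell and 1 rose. These shares, 13.8% and 3.45%, were near those over all genes. Hspa4l, a nucleotide exchange factor for HSP70, held 2436, 2207 and 2884 in the oviducts and 276, 298, 119 and 580.5 in the tumors (-3.07 ± 0.43, adjusted p = 0.00219). Hsp90aa1, an HSP90, held 9324, 8929.9 and 10415 in the oviducts and 3986, 4772, 4175 and 3689 in the tumors (-1.20 ± 0.18, adjusted p = 0.00302). Of 18 genes of serine synthesis and ATF4 targets 5 rose, a share of 27.8%, and 0 fell (3 to 8 rose without any 1 library). Atf4, the transcription factor of the integrated stress response, held 929.8, 929 and 868 in the oviducts and 2693, 3139, 1699 and 1862 in the tumors (1.30 ± 0.23, adjusted p = 0.00685). Aldh1l2, a mitochondrial folate enzyme, held 25.7, 29.2 and 24.9 in the oviducts and 220.4, 142, 148 and 316 in the tumors (2.25 ± 0.32, adjusted p = 0.00239). Of 28 glycolysis and hypoxia genes 1 rose, Hk2, and 1 fell (0 to 8 and 0 to 2 without any 1 library), Aldoc (2170.0, 2005 and 2166.2 in the oviducts and 399, 241, 20.3 and 354 in the tumors, -3.41 ± 0.76, adjusted p = 0.0175). The share was 3.57% in each direction, below those over all genes. Gapdh, a glycolytic enzyme often used as a reference gene, ranged widely over the tumors (5367, 5008 and 4013 in the oviducts and 23147, 9907, 4240.0 and 12036 in the tumors, 1.12 ± 0.51, adjusted p = 0.161). Among 16 tubulins 4 rose and 1 fell: Tubb5, a beta tubulin of dividing cells, rose (2337, 2578 and 2038 in the oviducts and 9573, 7740.1, 8328 and 7143 in the tumors, 1.81 ± 0.18, adjusted p = 0.000499), and Tubb4b, a beta tubulin of cilia, fell (4779.7, 6215 and 6332 in the oviducts and 1425, 2368, 1422 and 1955 in the tumors, -1.70 ± 0.23, adjusted p = 0.00194).

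The largest single changes included genes of no list. Prap1 (ENSMUSG00000025467.8, chromosome 7, 140093395 to 140097200, plus strand), a secreted acidic protein of gut and uterus, showed the largest rise of all called genes, at 33.5, 82.4 and 39.8 in the oviducts and 6242, 85005, 5151 and 2721 in the tumors (7.09 ± 1.05, adjusted p = 0.0029). Sprr2f, a cornified envelope protein, was high in tumors 2 and 4 (4.5, 6.0 and 7.0 in the oviducts and 97.1, 2858, 149.7 and 2333 in the tumors, 4.79 ± 1.16, adjusted p = 0.0239), as was Chil1, a chitinase-like secreted protein (1.1, 5.2 and 3.0 in the oviducts and 114, 3943, 54 and 2541 in the tumors, 4.98 ± 1.39, adjusted p = 0.0396). Capn6, a calpain without protease activity, was high in tumors 1 and 3 (35.7, 38.9 and 24.9 in the oviducts and 3899, 1009.5, 4677 and 198 in the tumors, 4.78 ± 0.98, adjusted p = 0.0122). Robo2, a slit receptor, and Vcan, versican, were highest in tumor 3 and lowest in tumor 4 (48, 48.7 and 17.9 in the oviducts and 2580.3, 1214, 6253 and 75.7 in the tumors, 4.42 ± 1.24, adjusted p = 0.0408, and 253, 166 and 135 in the oviducts and 4488, 4669.5, 10536 and 1136 in the tumors, 4.33 ± 0.65, adjusted p = 0.00314). Of their 15 alternatives, Robo2 lost its call in 7, Chil1 in 6, and Sprr2f and Capn6 in 4 each, without any 1 oviduct in all of these genes. The largest fall of all called genes was that of Sec14l3 (ENSMUSG00000054986.13, chromosome 11, 4064841 to 4077736, plus strand), a lipid transfer protein of ciliated cells, at 2856, 2879 and 3963 in the oviducts and 1.0, 0, 0 and 0 in the tumors (-8.12 ± 0.26, adjusted p = 2.13e-05). BC048546 followed at 9409.9, 12718 and 9479 in the oviducts and 447, 10.2, 0 and 4.2 in the tumors (-8.00 ± 1.14, adjusted p = 0.00242). Cdhr3, a cadherin of ciliated cells, held 1853, 1828 and 2366 in the oviducts and 27.2, 0, 0 and 0 in the tumors (-7.03 ± 0.54, adjusted p = 0.000215).

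Seed sites were then set against the changes of 16344 genes with an annotated 3′ UTR of at least 50 bases. For each of 25 miRNA families, a linear model took the change of a gene as outcome and, as terms, whether its UTR holds a 7-base match to the seed, its UTR length (log2) and its GC content. The coefficient is the modelled difference in log2 change between genes with and without a site, at the same UTR length and GC content. It is a description across genes, which are not independent replicates, and carries no p. Each oviduct was also set against the mean of the other 2. The oviduct values of a family therefore centre on 0 by construction and show only the spread among the oviducts. The family with the highest value was miR-29 (3p), with 0.112 over the group and 0.080 to 0.161 in single tumors, beside -0.012 to 0.006 for each oviduct against the other 2. Of the 2595 genes with a miR-29 site 6.59% rose, beside 4.69% of those without. Second was miR-200b (3p) with 0.079 (0.007 to 0.166 in single tumors), in which tumors 1 and 3 were the highest. Oviducts gave -0.012 to 0.019, so that tumor 2 lay within their range. Of the genes with a miR-200b site 4.71% rose, beside 5.04% of those without, and 8.1% fell, beside 10.75%. Next came miR-30 (5p) with 0.040 (-0.010 to 0.087 in single tumors). miR-26 (5p) stood at 0.034 (0.013 to 0.047), above 0 in all 4 tumors, beside -0.005 to 0.003 for the oviducts. let-7 (5p) also stood at 0.034 (0.014 to 0.072), above 0 in all 4 tumors, but an oviduct reached 0.017. The lowest were miR-21 (5p) with -0.107 (-0.199 to -0.058) and miR-199 (3p) with -0.066 (-0.098 to -0.024), both below 0 in all 4 tumors. These 3 extremes, miR-29, miR-200b and miR-21, were already seen in earlier results of these data.

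Families of the 5p strand and of the 3p strand did not part in 1 direction. The median coefficient of the 11 5p families was 0.003 and that of the 14 3p families -0.014. Above 0 were 6 of 11 and 5 of 14, and 2 of each were above 0 in all 4 tumors. miR-29 sites were frequent in some matrix lists, most of all in collagen chains. Of these, 22 of 41 (53.7%) hold one, beside 15.9% of all genes. A site was present in 13 of the 18 risen chains and 9 of the 23 others. The share was 36.4% for collagen modification, 34.7% for proteases and inhibitors and 20.8% for integrins. For laminins, fibrillins and other glycoproteins it was 15.9%, with a site in 5 of the 21 risen genes and 2 of the 23 others. Without the genes of the 5 matrix lists the miR-29 coefficient was 0.077, and without the let-7 and oncofetal list that of let-7 was 0.018. Without the 6 cilium lists the coefficient was 0.101 for miR-29 and 0.051 for let-7.

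**Figure D5:**
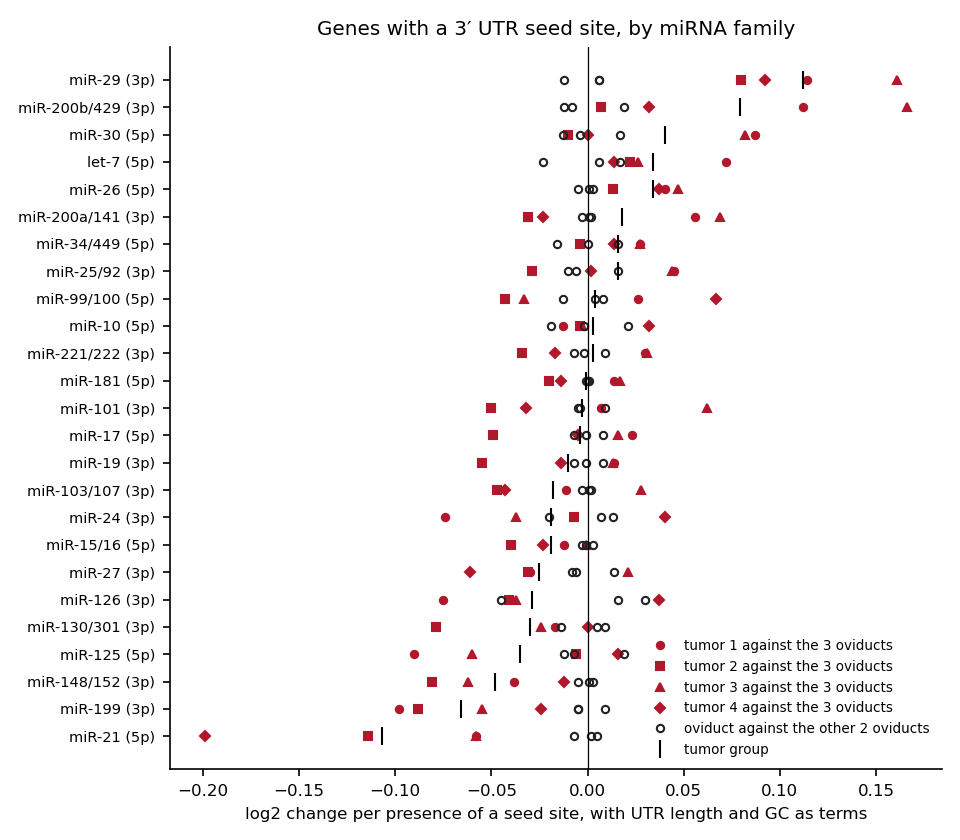
Regression coefficient (log2 change per presence of a 3′ UTR seed site, adjusted for UTR length and GC content) for 25 miRNA families, for each of the 4 tumors against the 3 oviducts (red symbols), for each oviduct against the other 2 (open circles) and for the tumor group (vertical ticks). The tumors lie above 0 for miR-29, where the oviducts stay between -0.012 and 0.006, and below 0 for miR-21, and most families lie on both sides of 0.

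Some calls of the genes named above differed with the set of controls. With all 5 oviducts as controls, Ovgp1, Igf2, Dlk1, Igf2bp1, Hoxd13, Myog, Cdh1 and Trp53 were called. In the main fit, with the 3 heterozygous ones, they were not. The reverse held for Jag1 (log2 change -0.95 with all 5), Rrm2b, Pttg1 and Pabpc1, which lost their call. The 3-group model with all 9 libraries compares the tumors with the 3 heterozygous oviducts only. It also called Ovgp1 and Igf2, and Pttg1 lost its call there, so these calls do not turn on the controls alone. Ovgp1 stood at 150619.1 and 82442.0 in the 2 Dicer1+/+ oviducts, Igf2 at 106.1 in both, and Igf2bp1 at 3.1 and 3.3. For Dicer1, Drosha, Epcam and Pgr no call was made with either set of controls. Of 129 called genes named here and tested under the alternatives, 33 lost their call whichever of the 3 oviducts was left out. Those that lost it in 7 or more of the 15 alternatives were Col20a1, Eya4, Robo2, Hoxa13, Mest, Hk2, Cxcl12 and Pabpc1.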

How the data were processed

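Gene expression was measured by poly-A RNA-seq. The submitters' processing notes name FastQC 0.11.5, STAR 2.5.3a, HTSeq and the GRCm38 (mm10) build, with no role or order; HTSeq's strand setting is not given in the sources used here. The authors deposited 1 table of log2 values for 19435 genes and 9 libraries. Its transformation is not stated. Undoing it as a variance stabilizing transformation gave whole reads, within 0.05 reads, for 100% of values after multiplication by a size factor, and these gave the normalized counts and the read totals. A value of 0 reads lies at the scale's floor, 3.427, and a shift of low genes is understated on this scale. The floor of 3 counts covers counting error only.

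The deposited log2 values of the 7 libraries were fitted with limma 3.58.1 in R 4.3.3 (trend in the prior variance, two-sided, Benjamini-Hochberg adjustment over 19435 genes). The script was tested on simulated data with the same spread in both groups, which does not cover the wider spread of the tumors. Symbols were matched to GENCODE M21 (18576 directly, 627 by synonym, 232 unmatched). The unmatched include 25 symbols that read as dates, which were not restored. Members and lists were chosen with earlier results of these data known. Genes were drawn by a rule: the 12 largest changes per direction among called genes with a group mean of at least 9, up to 4 called genes per list and direction, up to 2 of a list without a call, the called genes among the 100 most abundant, and a set of markers. The rule gave 260 genes. Of these, 152 were named in the text and tested under the alternatives, a further choice that the rule did not set. Motile cilium, mitosis and matrix totals, and the few other genes counted by name, follow from the lists. Alternatives were other controls, normalizations, filters and thresholds, a voom fit on the recovered reads, and each library left out.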

Additional observations from a re-analysis of the deposited data

Results flagged for a closer look

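In 15 of the named genes, 9.87% of those tested, the highest or the lowest of the 4 tumors stood apart from the other 3 by Dixon's criterion on the deposited log2 scale, which chance meets in about 1 of 20 groups. In 6 of the 15 the other 3 tumors held no read, so that any read in the remaining tumor meets the criterion. Among them are 4 genes of ciliated cells with reads in tumor 1, at 16.5 normalized counts of Armc4, 27.2 of Cdhr3, 26.2 of Rsph4a and 1.0 of Sec14l3. The others are Hsd3b1 at 1.0 in tumor 1 and the fat cell hormone Adipoq at 5427.6 in tumor 4. The values of 1.0 lie under the floor of 3 counts and cannot be told from 0.

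The other 9 genes had reads in more than 1 tumor. Tumor 1 was the high sample for the oncofetal genes Igf2bp3 at 409.8 normalized counts and Lin28b at 538.0. Tumor 4 was the high sample for the matrix genes Efemp1 at 1024.3 and Sparc at 26701.5. It was the low sample for Cdkn2a at 135.7, Matn4 at 61.0, Mest at 204.0 and Ovgp1 at 111.5. Tumor 3 was the high sample for Fgf2 at 1882.4.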

How the results depend on the processing

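With 1 library left out at a time, 412 to 1311 genes were called higher and 1299 to 2327 lower. An adjusted p under 0.05 without a minimum change gave 1365 higher, and an adjusted p under 0.01 gave 404 higher and 1254 lower. No gene was called in the opposite direction in any of these settings or in those below. The 3-group model with all 9 libraries gave 1004 and 2219, all 5 oviducts as controls 1269 and 2356, the filter on low values 818 and 1604, and voom on the recovered reads 772 and 2355. Of 129 called genes named here and tested under the alternatives, 82 kept their call in all 15 and 47 lost it in at least 1. Of the 23 tested that were not called, 12 were called in at least 1.

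The labels do not pair oviducts with tumors. The deviations of same-numbered libraries correlated at 0.107, 0.039 and -0.126, beside -0.155 to 0.144 for libraries with different numbers. So few pairs cannot show whether same-numbered samples share an animal or a batch. With the number as a block, in which tumor 4 has no partner and does not enter the estimate, 1226 genes were called higher and 2125 lower. Among genes that were not called, the change of Ptprc was -0.190 with the replicate block and ran from -0.219 to 0.544 with 1 library left out, below 0 without oviduct 1 or tumor 2 or 4. That of Igf2bp3 ran from -0.091 to 1.021 and was below 0 without tumor 1. The cause was not tested. The seed site coefficients without the matrix, oncofetal or cilium lists were chosen after seeing the data. Genes with few reads are limited by depth, since 3 counts correspond to up to 3.35 normalized counts in an oviduct and 3.41 in a tumor.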
